A study of Mus musculus with 11 samples.

Results

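The 9 genes described here encode enzymes of the methionine cycle and of choline metabolism, namely Mtr, Mtrr, Mat2a, Mat2b, Ahcy, Ahcyl1, Cbs, Pemt and Chdh. They were listed by name, with no threshold on a value but with earlier results of these data known, from the 38293 genes of the count tables, and each was found by its Ensembl identifier in the GENCODE annotation of mouse GRCm38. All 9 passed the minimum of 10 counts in total that left 20589 genes for testing. Hippocampal RNA was sequenced from 11 wildtype F1 mice of the strain cross 129S6/SvEv x C57BL/6J when they were 14 weeks old. Their mothers ate a diet with 2.3 mg folic acid (FA) per kg before conception in the control (CD) group and one with 40 mg per kg in the FA-rich (FD) group. There were 6 CD mice, 3 of each sex, and 5 FD mice, of which 2 were males. All mice compared are offspring, so the diets named here are those of their mothers. The labels do not tie the mice to litters or dams, so the p-values measure the spread between mice.

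In the methionine cycle, methionine synthase passes the methyl group of methylfolate to homocysteine, and the methionine formed is activated to S-adenosylmethionine, the general methyl donor of the cell. Use of that methyl group leaves S-adenosylhomocysteine, which is split to homocysteine and adenosine. Homocysteine is then methylated again or drained through transsulfuration towards cysteine and glutathione. Choline metabolism meets the cycle at 2 places, since phosphatidylcholine synthesis by Pemt uses S-adenosylmethionine and since betaine, made from choline by Chdh, can donate a methyl group to homocysteine. In the brain the betaine-dependent step is known to be of little weight, so that remethylation rests on the folate and cobalamin route.

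The counting step bears on 1 of the 9 genes more than on the others. Ahcy (ENSMUSG00000027597, chromosome 2, 155059310 to 155074497, minus strand, GRCm38), which encodes S-adenosylhomocysteine hydrolase, has near-identical copies elsewhere in the genome, while reads that aligned to several places were left out of the counts. The annotated gene Gm4737 on chromosome 16 (46152985 to 46155077) matched the Ahcy transcript at 99.66% over 2086 bases, and the processed pseudogene Gm9826 on chromosome 1 (7177739 to 7179037) matched it at 99.15% over 1299 bases. Over the 1296 coding bases, Gm4737 differed from Ahcy at 4 positions, written with the base of Ahcy first and counted from the start codon, C459T, G474A, C1050T and C1068T. Gm9826 differed at 11 positions, among them C1050T and C1068T. The stretch from coding position 437 to 496 is given here because it holds the first 2 of the positions at which a read can tell Ahcy from Gm4737, set in capitals.
Ahcy: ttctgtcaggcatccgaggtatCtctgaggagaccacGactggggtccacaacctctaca
Gm4737: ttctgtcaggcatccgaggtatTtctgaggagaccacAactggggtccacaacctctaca
Gm9826: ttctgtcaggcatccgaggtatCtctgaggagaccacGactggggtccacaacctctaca
In this stretch Gm9826 carries the same letters as Ahcy, so a read within it can tell Ahcy from Gm4737 but not from Gm9826. These are letters of the GENCODE transcripts of the reference genome and not of the mice, 1 parent strain of which is not the reference strain.

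The reads were 50 bases long, so the transcript of each gene was cut into all its 50-base words and each word was looked for in the transcripts of every other gene. Of the 2494 words of Ahcy, 1920 (77%) also occurred in another gene, and 95.2% of the words within its coding part did. For Mat2a 13.9% of the words were shared, with a processed pseudogene (Gm9523) among the holders, and for Chdh 9.57% were shared with Cacna1d, whose exons overlap 589 bases of it on the opposite strand. Cbs shared 1.54% of its words, and Mtr, Mtrr, Mat2b, Ahcyl1 and Pemt shared none. The map of the Ahcy words shows where the transcript can be counted.

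**Figure D1:**
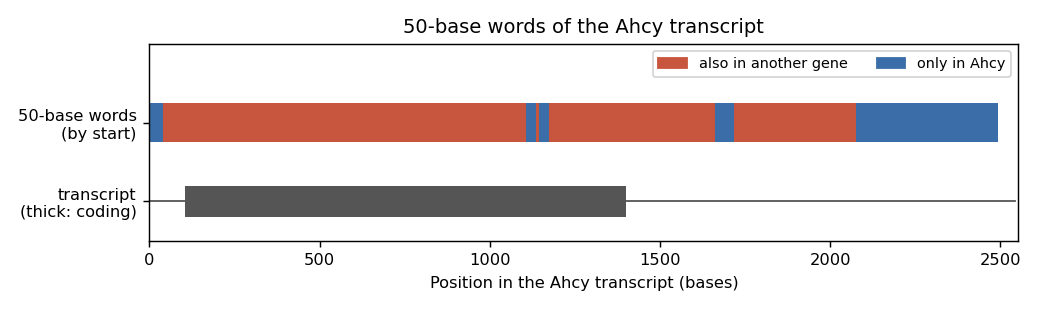
The upper bar marks each 50-base word of the Ahcy transcript by its starting position in bases, red where the word also occurs in another gene and blue where it occurs only in Ahcy; the lower line is the transcript with its coding part thick. Most of the words found only in Ahcy are the 419 that start between positions 2076 and 2494, in the 3′ untranslated part.

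Ahcy collected few counts, between 23 and 84 per mouse, and the part of its shared words in this was not tested. Its level in CPM, the count scaled to library size with TMM factors, was 1.90, 2.23, 1.70, 1.96, 1.90 and 1.53 in CD male 1, female 1, male 2, female 2, male 3 and female 3. In FD female 1, male 1, female 2, male 2 and female 3 it was 1.86, 1.43, 1.83, 1.70 and 2.11. The groups overlapped, with FD male 1 alone below the lowest CD mouse. Gm4737 collected 447 counts over the 11 mice against 479 for Ahcy, although only 129 of its 2044 words occur in no other gene. Per 100 such words this is 346.5 counts for Gm4737 and 83.4 for Ahcy, and which of the 2 genes the Gm4737 counts stem from was not tested. Gm9826 collected 21 counts. Summed over Ahcy, Gm4737 and Gm9826, the level was 3.73 ± 0.529 CPM (SD, n = 6) in CD and 3.55 ± 0.449 CPM (SD, n = 5) in FD mice, a difference within the spread between mice (exact permutation test, two-sided, p = 0.5649). Reads that aligned to more than 1 of these genes are in none of the counts summed, so the sum does not restore them.

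The remaining genes were counted over all or most of their length. Total counts on genes lay between 11737554 and 44447006 per mouse, so that 3 counts correspond to 0.0675 to 0.256 CPM. Of the uniquely aligned reads, 8.34 to 12.9% lay outside annotated genes. The 8 markers of hippocampal neurons (among them Prox1 of the dentate gyrus and Neurod6 of pyramidal cells) summed to between 7215 and 7953 CPM in every mouse, without a difference in any of them past the threshold between the diets. Choroid plexus markers summed to 36.2 to 91 CPM in CD and 31.1 to 44.6 CPM in FD mice, and meningeal fibroblast markers to 57.3 to 147.2 CPM in CD and 92 to 185.9 CPM in FD mice. No gene of the 8 marker lists passed the threshold between the diets. In whole tissue, fewer cells of a type and less RNA per cell cannot be told apart.

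Levels are compared between genes as CPM per kilobase of annotated exon (the median and range over the 11 mice). Ahcyl1 stood highest at 65.9 (61.2 to 68). It encodes a protein related to Ahcy in sequence that is best known as IRBIT, a partner of the inositol trisphosphate receptor, and not as a hydrolase. Mat2a followed at 33.7 (32 to 37.6) and Mat2b at 23.6 (22.5 to 25.7). They encode the catalytic and the regulatory subunit of the methionine adenosyltransferase found outside the liver. Cbs, the first enzyme of transsulfuration, stood at 3.87 (3.40 to 4.29) and Mtrr, which keeps methionine synthase active, at 3.68 (3.20 to 4.21). These neighbours were not separated, since Cbs was above Mtrr in 8 of 11 mice and their ranges overlapped. Mtr, methionine synthase itself, stood at 1.74 (1.22 to 2.12), below Mtrr in all mice. The lowest 3 were Pemt at 0.945 (0.525 to 1.30), Chdh at 0.810 (0.611 to 1.02) and Ahcy at 0.663 (0.509 to 0.795). The ranges of Pemt, Chdh and Ahcy overlapped from each to the next, and the range of Pemt also touched that of Mtr although Mtr was higher within each of the 11 mice. This order rests on the length of all annotated exons of a gene. Per 1000 of the 50-base words of 1 transcript that occur in no other gene, the median was 115.7 CPM for Ahcyl1, 63.7 for Mat2a, 62.2 for Mat2b, 5.01 for Mtrr, 4.76 for Cbs, 3.24 for Ahcy, 2.08 for Pemt, 1.80 for Mtr and 0.987 for Chdh. On that scale Mat2a and Mat2b were close together, Pemt stood above Mtr, and Ahcy was no longer the lowest. Per 1000 of all words Mat2b (62.2) stood above Mat2a (54.8). Ahcyl1 was highest on each of these scales.

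**Figure D2:**
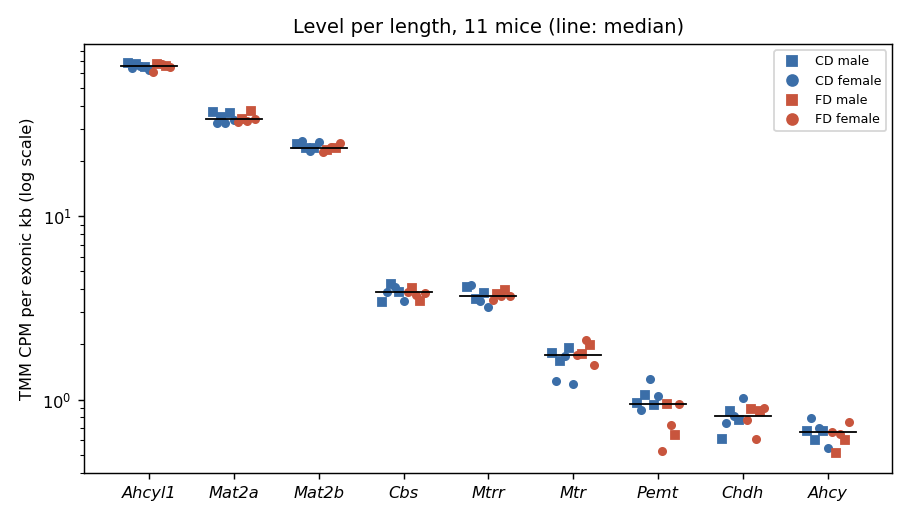
Each point is 1 mouse (squares males, circles females, blue CD, red FD) and each line the median of a gene, with TMM CPM per exonic kilobase on a log axis. On this scale Ahcyl1, Mat2a and Mat2b lie apart from each other and above the other 6 genes, whose medians run from 3.87 down to 0.663.

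Other genes of the pathway show which steps had transcripts in this tissue. Bhmt, which methylates homocysteine with betaine, had 4 counts in all over the 11 mice and was not tested. Its relative Bhmt2 had 35 counts and Mat1a, the methionine adenosyltransferase of liver, had 17. Gnmt, which disposes of excess S-adenosylmethionine in liver, lay between 0.228 and 0.790 CPM. Ahcyl2, the closest relative of Ahcyl1, reached a median of 280.4 CPM or 15.4 CPM per kilobase. Cth, which follows Cbs in transsulfuration, had a median of 3.40 CPM or 1.22 CPM per kilobase. In the choline pathway the transporter Slc44a1 had a median of 17.5 CPM per kilobase, and the choline kinase gene Chka and the gene of the next enzyme towards phosphatidylcholine, Pcyt1a, had 5.67 and 5.68. Dmgdh, which acts on the product of betaine's methyl transfer, had a median of 0.371 CPM. Bhmt and Mat1a stayed at no more than 5 counts in any mouse, where Mtr had at least 156 and Mat2a at least 1697.

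The first comparison asks whether the maternal diet left a difference in these transcripts in the adult offspring. None of the 9 genes passed the threshold of 0.1 on the adjusted p-value (quasi-likelihood test of edgeR, Benjamini-Hochberg adjustment over 20589 genes). Of all genes tested, 14 did (0.068%), and with the mice of the same sex and number treated as pairs 25 did, again with 0 of the 9 among them. The labels do not say that mice of the same number belong together. At an unadjusted p under 0.05 there was 1 of the 9, Pemt, against 2.59% of all genes, and DESeq2 also called 0 of the 9. In log2 fold change, 3 of the 9 were higher and 6 lower in FD mice, with a median of -0.01, and the median of all genes was -0.004.

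**Figure D3:**
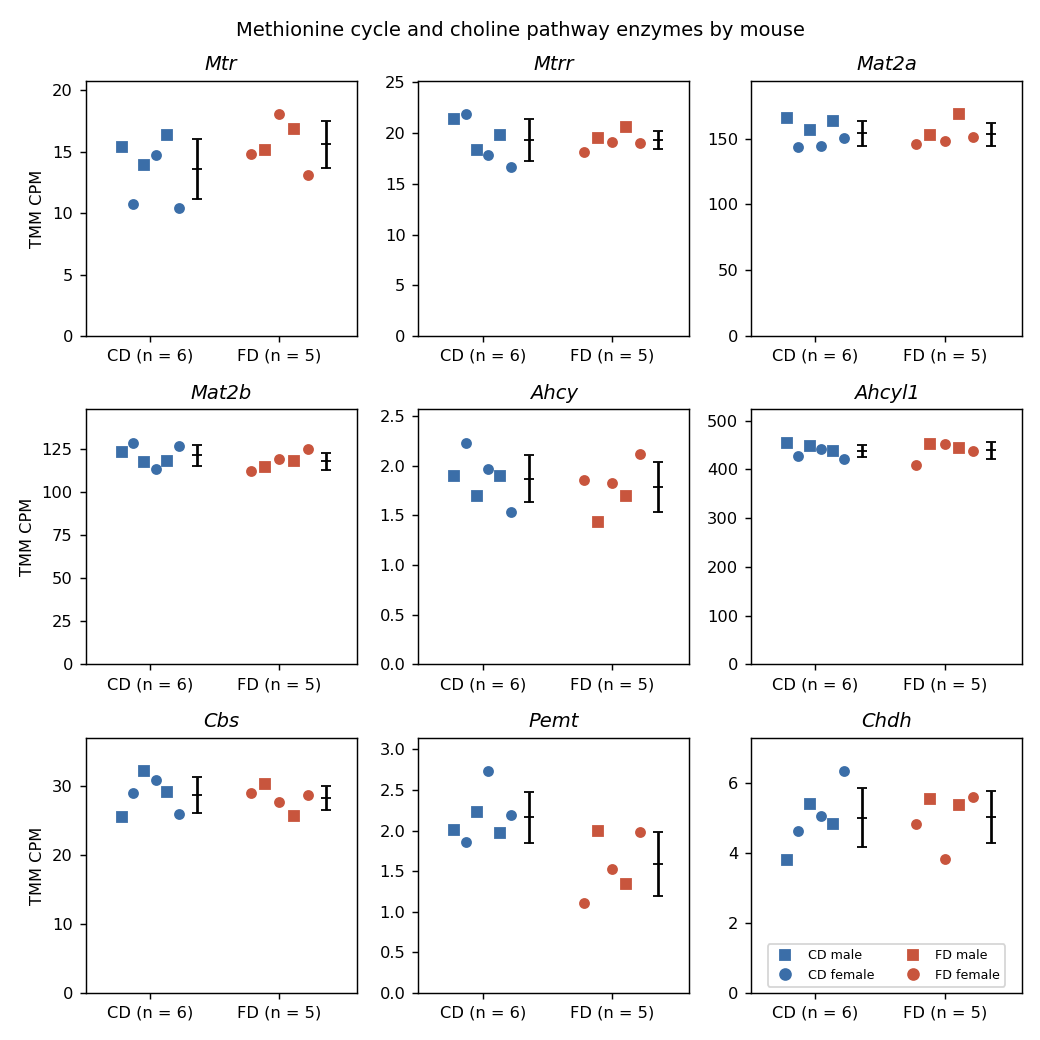
Each panel shows TMM CPM of 1 gene in the 6 CD mice (blue) and 5 FD mice (red), squares for males and circles for females, with the mean and SD of each group in black; the axes start at 0. The diets overlap in all 9 panels, and Pemt is the gene with most FD mice, 3 of 5, below every CD mouse.

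Among the remethylation genes, Mtr (ENSMUSG00000021311, chromosome 13, 12182712 to 12258113, minus strand) had 15.4, 10.8, 13.9, 14.8, 16.4 and 10.4 CPM in CD male 1, female 1, male 2, female 2, male 3 and female 3. The FD mice had 14.8, 15.1, 18.1, 16.8 and 13.1 CPM in female 1, male 1, female 2, male 2 and female 3. The lowest 2 mice were both CD females and the highest was an FD female, but the groups overlapped. Group means were 13.6 ± 2.47 (SD, n = 6) and 15.6 ± 1.90 CPM (SD, n = 5), and the log2 fold change was 0.18 (95% interval -0.07 to 0.43, standard error 0.12, adjusted p = 1 from edgeR). The exact permutation test over the 462 ways to assign 5 of 11 mice gave p = 0.1905 (two-sided). The interval leaves room for a rise of up to 34.9% in FD mice. The FD mouse was higher in 4 of 5 pairs. The log2 fold change was 0.11 without CD female 1, 0.37 in females alone and 0.07 in males alone, in each case short of the threshold.

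Mtrr (ENSMUSG00000034617, chromosome 13, 68560780 to 68582149, minus strand) was at 19.3 CPM in both groups, with an SD of 2.07 in CD (n = 6) and 0.869 in FD mice (n = 5). The 95% interval of its difference, -11.4% to 10.7%, includes 0.

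The activation step showed small intervals. Mat2a (ENSMUSG00000053907, chromosome 6, 72432799 to 72439558, minus strand) was at 154.1 ± 9.27 CPM (SD, n = 6) in CD and 153.3 ± 8.94 CPM (SD, n = 5) in FD mice, with a 95% interval of the difference from -8.08% to 7.49%. Mat2b (ENSMUSG00000042032, chromosome 11, 40679314 to 40695203, minus strand) was at 121.2 ± 6.06 and 117.8 ± 4.83 CPM, with an interval from -9.50% to 4.23%. Both genes had at least 1324 counts in every mouse, and both intervals include 0.

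For S-adenosylhomocysteine hydrolase and its relative, the precision differed widely. The interval for Ahcy ran from -23% to 17.2%, and counting error alone gives a coefficient of variation of 16.9% against 12.9% observed between the mice. Ahcyl1 (ENSMUSG00000027893, chromosome 3, 107663118 to 107696560, minus strand) was at 438.7 ± 12.4 CPM (SD, n = 6) in CD and 439.1 ± 17.7 CPM (SD, n = 5) in FD mice, with an interval from -6.21% to 6.82%. With a coefficient of variation of 3.25% it varied least of the 9 genes between the mice. The lowest and highest mice were FD female 1 at 409.7 CPM and CD male 1 at 454.8 CPM.

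Cbs (ENSMUSG00000024039, chromosome 17, 31608894 to 31637238, minus strand) was at 28.7 ± 2.63 CPM (SD, n = 6) in CD and 28.2 ± 1.70 CPM (SD, n = 5) in FD mice. Its interval ran from -10.9% to 9.29%, and the exact permutation test gave p = 0.7489 (two-sided).

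The choline genes were both low. Pemt (ENSMUSG00000000301, chromosome 11, 59970614 to 60046489, minus strand) methylates phosphatidylethanolamine to phosphatidylcholine and is best known from liver. It had 2.005, 1.85, 2.22, 2.73, 1.96 and 2.20 CPM in CD male 1, female 1, male 2, female 2, male 3 and female 3. In FD female 1, male 1, female 2, male 2 and female 3 it had 1.10, 1.999, 1.52, 1.34 and 1.99 CPM. FD female 1, female 2 and male 2 were below every CD mouse, while the other two FD mice lay within the CD range. These values rest on 19 to 87 counts per mouse.

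The group means of Pemt were 2.16 ± 0.312 (SD, n = 6) and 1.59 ± 0.396 CPM (SD, n = 5). Its log2 fold change was -0.41 (standard error 0.17, 95% interval -0.78 to -0.05), with an unadjusted p of 0.0296 and an adjusted p of 1 from edgeR, so it did not pass the threshold. The exact permutation test gave p = 0.026 (two-sided, 1 of 9 genes tested), where 0.0022 is the smallest p that 462 assignments allow. When mice of the same sex and number were set against each other, the FD mouse was lower in 5 of 5 pairs, by 0.70, 0.81 and 0.14 on the log2 scale in females 1, 2 and 3 and by 0.004 and 0.69 in males 1 and 2. Of all genes, 4.17% were lower in the FD mouse of every pair. The replicate block gave Pemt a log2 fold change of -0.45 with an adjusted p of 0.615 (edgeR). Without FD female 1 the log2 fold change was -0.26, so this mouse moved the value by more than 1.5 times. It was -0.24 in males alone and -0.53 in females alone.

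Chdh (ENSMUSG00000015970, chromosome 14, 30009023 to 30040527, plus strand), the mitochondrial enzyme that starts the oxidation of choline to betaine, was at 5.00 ± 0.843 CPM (SD, n = 6) in CD and 5.02 ± 0.743 CPM (SD, n = 5) in FD mice. Its interval, from -15.1% to 24%, was wide, and it rests on 50 to 213 counts per mouse. Between the mice its coefficient of variation was 15.2%, where counting error alone gives 10.2%. For the 9.57% of its words shared with Cacna1d, a gene with 16976 counts in all, reads of the 2 genes cannot be told apart without strand. Whether strand was used is not given in the sources used here. Of the uniquely aligned reads, 1.607 to 1.785% per mouse were set aside as ambiguous and counted for no gene. Whether reads of this stretch were among them was not tested.

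The second comparison is between the sexes, with diet in the model, because each diet group held both. Again none of the 9 passed the threshold, against 6.11% of all genes, and 2 of the 9 had an unadjusted p under 0.05 (Mat2a and Mtr) against 20.3% of all genes. The 1257 genes called here depended on single mice, ranging from 18 without CD male 1 to 3244 without CD female 2. The share of the 9 at p under 0.05 is close to the background.

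Mat2a came nearest. The males had 165.5, 156.6 and 163.4 CPM in CD male 1, 2 and 3 and 152.8 and 168.6 CPM in FD male 1 and 2. The females had 143.8, 144.8 and 150.3 CPM in CD female 1, 2 and 3 and 145.7, 148.3 and 151 CPM in FD female 1, 2 and 3. All 5 males were above all 6 females, a separation in the same direction that 1.05% of all genes showed. The log2 fold change, male against female, was 0.13 (standard error 0.043, 95% interval 0.04 to 0.22), a difference of 9.58%, with an adjusted p of 0.105 from edgeR. The exact permutation test gave p = 0.0022 (two-sided), the smallest that the 462 assignments allow, with 9 genes tested in this way. The adjusted p passed 0.1 with DESeq2 (0.024), with RLE size factors (0.0952) and with filterByExpr (0.0825). It did so too without CD female 2 (0.0897) or without FD female 2 (0.0656). In edgeR it was 0.144 with no filter on low counts and 0.227 without FD male 2. All genes called numbered 2043 of 20589 with DESeq2, 1289 of 20589 with RLE size factors and 1496 of 15901 with filterByExpr. They numbered 3244 of 20496 without CD female 2 and 2762 of 20459 without FD female 2. The log2 fold change of Mat2a stayed between 0.12 and 0.16 over the 11 fits that each lacked 1 mouse.

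Mtr was higher in males by a log2 value of 0.24 (standard error 0.10, 95% interval 0.03 to 0.46), with an adjusted p of 0.193 from edgeR, but the sexes overlapped, since FD female 2 at 18.1 CPM was above every male. It passed the threshold with no filter on low counts (0.0614), without CD female 2 (0.0737) and without FD female 2 (0.0568). The other 7 genes had log2 differences between -0.18 (Ahcy) and 0.08 (Mtrr), with adjusted p-values from 0.515 to 0.992 in edgeR.

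**Figure D4:**
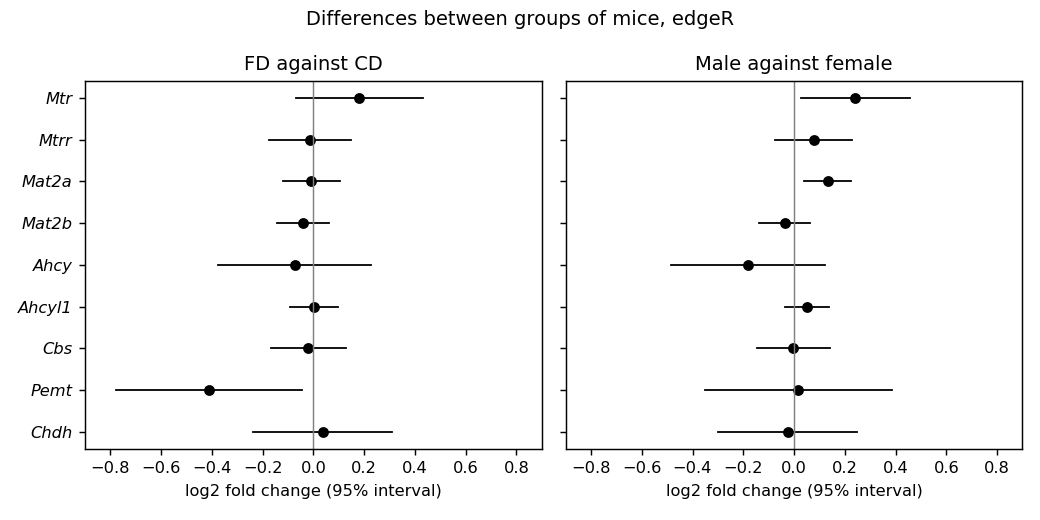
Points are log2 fold changes and lines their 95% intervals from edgeR, for FD against CD (left) and male against female (right). For the diet, the interval leaves out 0 for Pemt alone (-0.78 to -0.05); for sex it does so for Mat2a (0.04 to 0.22) and Mtr (0.03 to 0.46), none of them past the threshold after adjustment.

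Other measures moved with the sexes too. The share of uniquely aligned reads outside genes was 10.4 to 12.9% in males and 8.34 to 12.2% in females (exact permutation test, two-sided, p = 0.0671). All 6 oligodendrocyte markers were lower in males in log2 fold change, with a median of -0.26, and summed to 3885 to 4858 CPM in males and 3979 to 6238 CPM in females. Their part in the values of Mat2a and Mtr was not tested.

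Over the 11 mice, the log2 level of Mtr rose with the share of reads outside genes at Pearson's r = 0.64 (permutation p = 0.0354, adjusted over 9 genes 0.159) and Spearman's rho = 0.55 (permutation p = 0.087). Without the 2 mice farthest from the median share, r was 0.61, within the 6 females it was 0.72 and within the 6 CD mice 0.56. Within the 5 FD mice it was 0.83, but within the 5 males it was -0.35, so the relation did not hold within males. Ahcy ran the other way at r = -0.66 (permutation p = 0.0273, adjusted 0.159) and rho = -0.68 (permutation p = 0.0249), with r = -0.49 without the 2 farthest mice, -0.55 within females, -0.57 within males, -0.59 within CD and -0.73 within FD mice. Mat2a had r = 0.45 (permutation p = 0.168, adjusted 0.302), rho = 0.45 (permutation p = 0.172) and r = 0.27 without the 2 farthest mice, with 0.28 within females and -0.48 within males. Ahcyl1 (r = 0.58, permutation p = 0.0585, adjusted 0.17) and Mat2b (r = -0.56, permutation p = 0.0754, adjusted 0.17) were farther from 0 than Mat2a. Mtrr, Cbs, Pemt and Chdh lay between -0.24 and 0.19, but within the 5 males Chdh was at 0.93 and Mtrr at -0.85. None of the 9 relations passed 0.1 after adjustment, and the share of all genes with such an r was not computed.

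**Figure D5:**
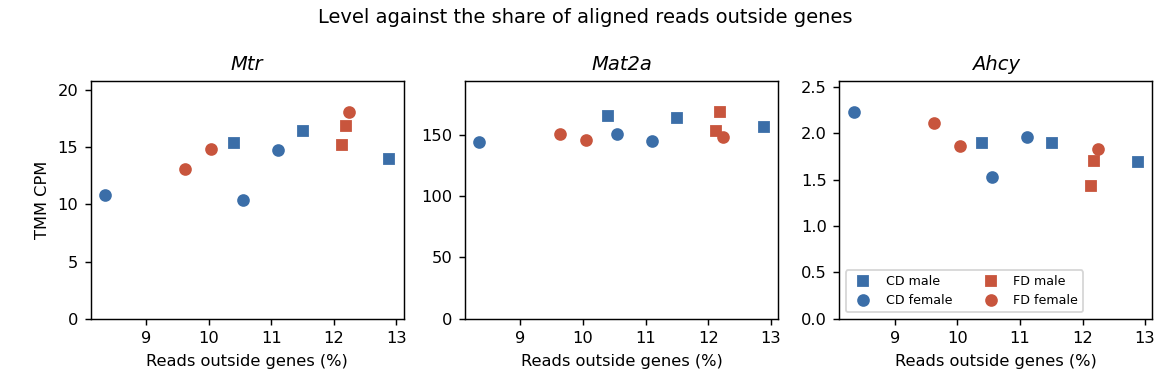
Each point is 1 mouse, with the percentage of uniquely aligned reads outside annotated genes on the x axis and TMM CPM of Mtr, Mat2a or Ahcy on the y axis, which starts at 0 (squares males, circles females, blue CD, red FD). Mtr lies higher and Ahcy lower towards larger shares (r of 0.64 and -0.66), and the 5 squares of Mat2a lie above its 6 circles.

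The third comparison asks whether the diet difference itself depended on sex. Over all genes the interaction term called 0% at an adjusted p under 0.1 and 1.9% at an unadjusted p under 0.05 (edgeR), and 0 of the 9 genes were among the latter. DESeq2 called 0 genes as well. The largest interaction terms, the log2 diet difference in males less that in females, were 0.36 for Chdh (95% interval -0.19 to 0.90) and -0.31 for Mtr (-0.73 to 0.12), so a dependence on sex within these intervals was not detectable with 2 to 3 mice of each diet and sex.

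Over the 36 pairs of the 9 genes, Pearson's r of the log2 levels ran from -0.65 to 0.52 over the 11 mice. No pair passed 0.1 after adjustment of its permutation p. For Pearson's r, a permutation p under 0.05 occurred for 1 pair, Mtr with Mat2b, at r = -0.65 (permutation p = 0.0318, adjusted over 36 pairs 0.71), where rho was -0.35 (permutation p = 0.299). Without the 2 mice farthest from the median of Mtr that r was -0.11, so it rests on those mice. For Mat2b with Cbs, rho was -0.63 (permutation p = 0.0437, not adjusted) and r was -0.48 (permutation p = 0.138). With 2 mice left out in the same way, r was highest for Mtrr with Mat2a (0.84) and lowest for Mtrr with Cbs (-0.81). Over all 11 mice these pairs had r = 0.39 (permutation p = 0.236) and r = -0.24 (permutation p = 0.48). The values with mice left out are the extremes of the 36 pairs, and no p was computed for them.

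Genes whose levels followed each of the 9 most closely were read off as a description, after the mean of each diet and sex was removed, among 14437 genes of at least 1 CPM on average in 11 mice. Each r is the highest of that many over few mice, and how high the highest would be for unrelated genes was not computed. For Mtr these were Srpk1 (r = 0.98) and Cep290 (0.97), for Mtrr Glra2 and Ube2f (both 0.97), and for Mat2a Zfp65 (0.94) and Gm6297 (0.93). For Mat2b they were Chchd3 and Ica1 (both 0.98), for Ahcyl1 Gm13651 and Atp2c1 (both 0.95), and for Cbs Gpc2 (0.99) and Dele1 (0.97). The 3 genes with the fewest counts had Gpatch11 (0.95) and Metap1 (0.94) for Ahcy, Jph1 (0.96) and Tdo2 (0.95) for Pemt, and Isoc2b and Trim17 (both 0.94) for Chdh. For Ahcy the spread between mice (12.9%) is below that of counting error (16.9%). None of the 9 stood among the nearest genes of another.

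The wider pathway was read from 5 lists of 77 genes in all, the 9 included, of which 76 were tested. Between the diets 0 of 76 passed the threshold (37 higher and 39 lower, median log2 fold change -0.01). An unadjusted p under 0.05 in edgeR was found for 2 of the 76, close to the 2.59% of all genes. Beside Pemt this was Slc44a4, a choline transporter-like gene, with 0.212 to 0.466 CPM in CD and 0 to 0.190 CPM in FD mice. Its groups did not overlap, as was so in either direction for 0.505% of all genes, but it rests on 0 to 12 counts per mouse, and its log2 fold change was -1.15 (standard error 0.40, unadjusted p = 0.0103, adjusted p = 1 from edgeR). The choroid plexus markers Ttr (log2 fold change -1.19, unadjusted p = 0.0212) and Kcne2 (-1.64, 0.0456) had lower values in FD mice as well, with an adjusted p of 1 each in edgeR, and 7 of 9 markers of that list were lower. Of the same list, Otx2 was at -0.09 and Prlr at -0.006, while Slc4a5 (0.14) and Aqp1 (0.19) were higher in FD mice. The part of choroid plexus in the value of Slc44a4 was not tested.

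In the methionine cycle and cobalamin list, 0 of 18 tested genes passed between the diets (10 higher, 8 lower). Apart from the 9 genes, the smallest p belonged to Cd320, the receptor that takes up cobalamin (11.7 ± 1.40 against 10.6 ± 0.550 CPM in FD and CD mice), and Adk, which removes the adenosine released by Ahcy (53.4 ± 1.78 against 50.9 ± 2.41 CPM). The list of transsulfuration, cysteine and glutathione genes had 0 of 11 (4 higher, 7 lower), led outside the 9 genes by Ethe1 of sulfide oxidation and by Gss, glutathione synthetase, with log2 fold changes of -0.17 and -0.09. In the choline, betaine and phosphatidylcholine list 0 of 29 passed (15 higher, 14 lower). After Slc44a4 and Pemt the smallest p there was that of Pcyt2 of phosphatidylethanolamine synthesis, at -0.07. The polyamine and methionine salvage list had 0 of 10 (4 higher, 6 lower), led by Srm, spermidine synthase, and Odc1, ornithine decarboxylase, at -0.11 and -0.08. The list of small molecule methyltransferases had 0 of 8 (4 higher, 4 lower), led by Gamt of creatine synthesis at -0.15 and the histamine methyltransferase gene Hnmt at 0.06.

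Between the sexes, 7 of the 76 pathway genes passed the threshold, 2 higher and 5 lower in males (edgeR, adjusted p under 0.1), against 6.11% of all genes. Among the lower were Tst (log2 fold change -0.34, adjusted p = 0.0485) and Mpst (-0.29, 0.0946), both sulfurtransferases, Srm (-0.22, 0.0852) and Gamt (-0.48, 0.0621). Higher were Slc44a5 of the choline transporter-like family (0.29, 0.0718) and Sat1, which acetylates spermidine and spermine (0.23, 0.0897). In Tst the sexes did not overlap, with 16.5 to 19.9 CPM in males and 20.9 to 25.5 CPM in females. The share of all genes separated with males lower was not computed, and with males higher it was 1.05%. Over the 11 fits that each lacked 1 mouse, Tst kept its call in 7 of 11 fits and the other 5 named genes in 2 to 4 of 11, and the number of pathway genes called ran from 0 (without CD male 1, CD female 1, FD female 3 or FD male 2) to 12 without FD female 2 and 18 without CD female 2. Apart from Slc44a5 and Sat1, these genes had lower levels in males as the oligodendrocyte markers had, and the part of those cells was not tested.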

How the data were processed

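Whole hippocampi of 11 F1 mice (6 CD, 5 FD) were sequenced as single-end reads of 50 bases. After trimming and alignment to mm10 (GRCm38) with STAR, the authors deposited unnormalized counts of uniquely aligned reads per gene. The submitters' processing notes name featureCounts, while the tables close with lines of the kind HTSeq writes for unassigned reads. The annotation release and the use of strand are not given in the sources used here. Reads in those lines (8.34 to 12.9% of uniquely aligned reads outside genes) stayed out of library sizes.

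Groups, sexes and numbers were taken from the sample titles. Of 38293 identifiers, 94.9% matched GENCODE M21. Genes with at least 10 counts in total (20589) were fitted with edgeR 4.0.16 (R 4.3.3; TMM, quasi-likelihood test, Benjamini-Hochberg adjustment, threshold 0.1), FD against CD without covariates, male against female with diet, and the interaction. Standard errors are the log2 fold change divided by the square root of F. A prior count of 2 was used for log2 CPM. Single genes were compared by exact permutation, and correlations with 100000 permutations. The fits were tested on simulated data. Copies were found with blastn 2.17.0 (at least 90% identity over coding bases). Tables and figures were made with Python 3.11.15, pandas 2.3.3, scipy 1.17.1 and matplotlib 3.10.9.

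Mice of the same sex and number were paired in the replicate block, although the labels do not define such pairs. Their deviations from the diet means correlated at r = 0.31 to 0.54 in the 5 pairs, all over 0.1, and since a pair shares its sex this was repeated with sex removed (r = 0.005 to 0.39, 2 of 5 pairs over 0.1).

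The members and lists were chosen with earlier results of these data known. Named are all 9 members, the 2 other genes of each pathway list with the smallest p between the diets, any list gene past a threshold (1 such gene is not reported here), near-identical copies, and the 2 genes most alike to each member. Bhmt, Bhmt2, Mat1a, Gnmt, Ahcyl2, Cth, Slc44a1, Chka, Pcyt1a and Dmgdh were named for their levels after these were seen. Alternatives were DESeq2 1.42.0, RLE size factors, other count filters, the replicate block, sex as covariate, each sex on its own, and fits lacking 1 mouse. The sum of Ahcy and its copies, the permutation tests between sexes and the correlations were added after seeing the data. Intervals of differences come from the edgeR fits and include the spread between mice.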

Additional observations from a re-analysis of the deposited data

How the results depend on the processing

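The count of the 9 genes called between the diets stayed at 0 under every alternative run, the replicate block included (0 of 9). The number of genes called overall was 25 with the replicate block, 8 with filterByExpr, 1 in females only, 2 in males only and 3 to 12 when each mouse was left out. Values near 0 changed sign: Mtrr with filterByExpr (0.00013) and in males only (0.0264), Mat2a with filterByExpr (0.00435), sex as a covariate (0.00604), the replicate block (0.00949), females only (0.021) and males only (0.00613), Ahcyl1 with the replicate block (-2.1e-05), and Chdh in females only (-0.126). Leaving out mice gave -0.0515 to 0.0241 for Mtrr, -0.0406 to 0.0203 for Mat2a, -0.00969 to 0.0362 for Ahcyl1, -0.0525 to 0.0224 for Cbs, -0.0354 to 0.113 for Chdh, 0.11 to 0.25 for Mtr, -0.52 to -0.26 for Pemt, -0.147 to -0.00034 for Ahcy and -0.064 to -0.0145 for Mat2b. Ahcy was at -0.24 in males only and -0.005 in females only. The replicate block turned no call of the 9.

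Between the sexes, 1 of the 9 passed with DESeq2, RLE size factors, filterByExpr (Mat2a at 0.14 in each) and no filter (Mtr at 0.24), and 0 to 2 when each mouse was left out. All genes called numbered 2043 with DESeq2, 2645 with no filter and 18 to 3244 with a mouse left out. Cbs changed sign with DESeq2 (0.00558), RLE size factors (0.00559) and filterByExpr (0.00731), and ran from -0.0373 to 0.0424 with a mouse left out, as did Pemt from -0.11 to 0.10 and Chdh from -0.0779 to 0.0657. Mat2a ran from 0.12 to 0.16 and Mtr from 0.18 to 0.31. The interaction called 10 genes with no filter and 0 to 1 with a mouse left out. The causes were not tested. Ahcy, Pemt and Chdh have as few as 23, 19 and 50 counts in a mouse, where counting error alone gives coefficients of variation of 16.9%, 16.7% and 10.2%.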
